A study of Mus musculus with 9 samples.

Results

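TRBV and TRBJ segments are the variable and joining gene segments of the T cell receptor (TCR) β chain, and their use was compared here between 3 sorted thymocyte gates and 2 genotypes. Every TRBV and TRBJ label in the V and J fields of the TRB contigs of the 3 TCR libraries was taken. This gave 33 members (21 TRBV and 12 TRBJ) after 2 labels that were identical over the part of V compared were joined. The labels were among 166 V and J labels of all TCR contigs, of which 89 TRAV and 43 TRAJ make up the rest. The members were carried by 26009 TRB chains, of which 9083 came from the CD4 gate, 9224 from the CD8 gate and 7702 from the DP gate. The cells were thymocytes of adult female mice, either wild type (WT) or CD3εI173A, in which CD3ε, one of the chains through which the TCR complex signals, has an I173A substitution. Both were stained with hashtag antibodies (hashtag 4 for WT and 6 for I173A, in the order in which the labels list them), with CD4 and CD8 antibodies and with a viability dye. They were then sorted to CD4+CD8- (CD4), CD4-CD8+ (CD8) and CD4+CD8+ (DP) cells and profiled by droplet 5′ RNA and TCR sequencing. Strain, zygosity and the number of mice are not given in the sources used here, so that each genotype in each gate is 1 sample.

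The β chain gene is assembled in immature thymocytes, where a D segment first joins a J segment and a V segment then joins the D–J piece. Most V segments join by deleting the DNA that lies between them and the D–J piece, so V segments farther 5′ stay on the rearranged chromosome, while TRBV31 lies 3′ of the constant genes and joins by inversion. DP cells carry a β chain that has not yet been selected on MHC, CD4 single-positive cells are those selected on MHC class II and CD8 single-positive cells those selected on class I. The V segment encodes CDR1 and CDR2, the loops that lie mostly over the MHC, and the V–D–J junction encodes CDR3.

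The V segments on which the gate comparison turns are shown first, as the stretch from framework 1 to the end of CDR2 that was most frequent in the contigs of each label, with CDR1 and CDR2 in capitals. The first 5 had the highest CD8 over CD4 ratios in WT cells and the next 2 the lowest.
TRBV12-1: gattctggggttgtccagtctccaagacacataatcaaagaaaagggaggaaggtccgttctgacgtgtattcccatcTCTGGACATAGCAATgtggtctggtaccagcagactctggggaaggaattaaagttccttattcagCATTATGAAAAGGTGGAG
TRBV12-2: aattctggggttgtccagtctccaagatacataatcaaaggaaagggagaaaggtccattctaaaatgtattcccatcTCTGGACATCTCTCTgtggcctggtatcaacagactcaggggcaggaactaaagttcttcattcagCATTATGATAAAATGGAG
TRBV17: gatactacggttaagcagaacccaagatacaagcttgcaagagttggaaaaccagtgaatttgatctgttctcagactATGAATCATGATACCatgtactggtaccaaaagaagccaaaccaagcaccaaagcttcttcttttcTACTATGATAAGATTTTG
TRBV29: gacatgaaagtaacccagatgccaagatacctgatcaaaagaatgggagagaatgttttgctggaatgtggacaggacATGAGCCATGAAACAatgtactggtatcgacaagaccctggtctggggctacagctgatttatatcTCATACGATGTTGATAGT
TRBV14: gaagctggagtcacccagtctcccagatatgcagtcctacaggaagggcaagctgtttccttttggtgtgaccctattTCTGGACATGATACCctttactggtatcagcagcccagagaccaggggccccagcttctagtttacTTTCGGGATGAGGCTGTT
TRBV2: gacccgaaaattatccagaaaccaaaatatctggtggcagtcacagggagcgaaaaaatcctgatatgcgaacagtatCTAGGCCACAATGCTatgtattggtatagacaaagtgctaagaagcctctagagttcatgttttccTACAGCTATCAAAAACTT
TRBV31: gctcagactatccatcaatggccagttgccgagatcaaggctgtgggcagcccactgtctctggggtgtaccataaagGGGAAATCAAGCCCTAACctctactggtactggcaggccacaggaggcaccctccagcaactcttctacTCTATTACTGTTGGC
These segments lie on chromosome 6 in the RefSeq annotation of GRCm38.p6, and the printed stretches are part of their V exons. TRBV12-1 (formerly Vβ5.2) is at chr6:41113567-41114067, TRBV12-2 (Vβ5.1) at chr6:41118864-41119364 and TRBV14 (Vβ13) at chr6:41135167-41135616. TRBV17 (Vβ9) is at chr6:41163092-41163556, TRBV29 (Vβ7) at chr6:41271403-41271881 and TRBV2 (Vβ4) at chr6:41047556-41047995. TRBV31 (Vβ14) is at chr6:41557693-41558371, beyond TRBC2 at chr6:41546730-41548181. TRBV29 is annotated there as a V segment pseudogene, yet 1129 productive chains carried it.

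TRBV12-1 and TRBV12-2 differed at 23 of 162 positions, of which 4 lay in CDR1 (15 bases) and 3 in CDR2 (18 bases). TRBV31 had a CDR1 of 18 bases and a CDR2 of 15, unlike TRBV12-1, TRBV12-2, TRBV17, TRBV29, TRBV14 and TRBV2, which had 15 and 18. The TRBV13 family (formerly Vβ8) is shown because its members are close in sequence and had CD8 over CD4 ratios on different sides of 1. Over the printed stretch they were 90.7 to 93.2% identical.
TRBV13-1: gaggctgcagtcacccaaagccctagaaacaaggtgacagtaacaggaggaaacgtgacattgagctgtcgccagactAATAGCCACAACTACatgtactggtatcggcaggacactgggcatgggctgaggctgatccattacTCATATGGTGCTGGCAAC
TRBV13-2: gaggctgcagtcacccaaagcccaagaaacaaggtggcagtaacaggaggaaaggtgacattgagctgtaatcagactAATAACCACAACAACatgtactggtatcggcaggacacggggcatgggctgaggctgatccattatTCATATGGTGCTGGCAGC
TRBV13-3: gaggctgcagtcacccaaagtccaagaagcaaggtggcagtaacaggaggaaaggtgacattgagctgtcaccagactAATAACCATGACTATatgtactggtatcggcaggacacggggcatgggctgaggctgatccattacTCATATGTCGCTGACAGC
TRBV13-1 and TRBV13-2 differed at 11 positions of these 162, TRBV13-2 and TRBV13-3 at 12, and TRBV13-1 and TRBV13-3 at 15. The deposited labels name TRBV13-2 in 422 chains and a joint TRBV12-2 and TRBV13-2 label in 2100 chains, and the printed stretch was identical between the 2 labels (0 mismatches). The joint label was therefore counted as TRBV13-2, which gave 2522 chains. Median contig length was 570 bases with the joint label, 544 with the plain label and 571 for TRBV12-2. Contigs of the joint and plain labels thus differed in length outside the printed stretch, and why was not tested. Chains with the plain label made up 18.1% of the 1032 TRBV13-2 chains of the CD4 gate, 9.39% of the 788 in the CD8 gate and 22.9% of the 702 in the DP gate. Kept apart, the plain label alone had a CD8 over CD4 ratio of 0.310 in WT cells, lower than the 0.688 of all TRBV13-2 chains given below.

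One label named a gene that the RNA of the same cells did not.
TRBV10: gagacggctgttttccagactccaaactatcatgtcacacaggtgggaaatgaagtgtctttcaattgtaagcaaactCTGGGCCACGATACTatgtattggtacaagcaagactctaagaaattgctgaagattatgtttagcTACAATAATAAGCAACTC
In 1024 cells whose only TRB chain was labelled TRBV10, Trbv4 (Vβ10, chr6:41059443-41059886) supplied 90.0% of the Trbv RNA, with 12442 unique molecular identifiers (UMIs) in 99.8% of the cells, and Trbv10 RNA was listed at 0. For the other 20 TRBV labels the most abundant Trbv RNA bore the same name, at 84.0 to 94.7% of Trbv UMIs. The deposited label is kept here, and TRBV10 stands in the order of the locus at the place of Trbv4. RNA of Trbv24 (2477 UMIs) and Trbv21 (224 UMIs) was counted as well, although no productive chain was labelled with either.

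The J segments named below are shown by the last 12 bases of their part of CDR3, in capitals, followed by framework 4. TRBJ2-7 and TRBJ1-1 were the J segments with the largest difference in share between gates in WT cells, and TRBJ1-2 and TRBJ1-6 were those missing most from particular V segments.
TRBJ1-1: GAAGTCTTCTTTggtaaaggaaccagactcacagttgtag
TRBJ1-2: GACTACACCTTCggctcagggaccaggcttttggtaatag
TRBJ1-6: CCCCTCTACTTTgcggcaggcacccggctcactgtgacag
TRBJ2-7: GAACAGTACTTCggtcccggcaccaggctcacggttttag

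Hashtags assigned 15930 TRB chains to a genotype. The WT and I173A chains numbered 3094 and 2658 in the CD4 gate, 2991 and 2838 in the CD8 gate, and 2061 and 2288 in the DP gate, with a median of 21, 17 and 15 UMIs per chain over all chains of each gate. A TRB chain was found in 93.5% (WT) and 93.9% (I173A) of cells in the CD4 gate, in 93.7% and 92.9% in the CD8 gate, and in 78.2% and 80.9% in the DP gate. The gates held the RNA their sort asks for: in WT cells Cd4 stood at 372, 3.99 and 652 CPM (UMIs of a gene relative to all UMIs of the group, on the usual CPM scale) in the CD4, CD8 and DP gates, Cd8a at 27.9, 1102 and 2317, and Rag1 at 7.64, 26.8 and 1046. The CD8 gate of WT mice had more RNA of immature thymocytes than that of I173A mice (Dntt 218 against 72.2 CPM, Ptcra 32.7 against 6.17), and 81.0% against 86.7% of its cells with a TRB chain also had a TRA chain. With 1 sample per genotype and gate no difference has a replicate check and none was tested. The intervals are 95% intervals for counting error only (exact Clopper-Pearson for shares, exact conditional for ratios), and a segment is called past 1.3-fold where its ratio is at least 1.3 or at most 1/1.3 and both groups together hold at least 50 chains. TRBV23 (198 chains) and TRBV30 (63 chains) had too few chains in some groups, which left 19 TRBV segments in every comparison of gates and genotypes.

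V use stood farther apart between the CD4 and the CD8 gate than between genotypes. In WT cells 12 of 19 TRBV segments (63.2%) were past 1.3-fold between the CD8 and the CD4 gate, 5 of them higher in CD8 (26.3%) and 7 lower (36.8%). In I173A cells 11 of 19 were past it (57.9%), 6 higher (31.6%) and 5 lower (26.3%). For scale, 30 of 49 TRAV (61.2%) and 17 of 39 TRAJ segments (43.6%) were past 1.3-fold between the same WT gates. Summed over TRBV segments, 21.4% of chains in WT and 21% in I173A would have to move to another segment to turn the CD4 into the CD8 distribution. That sum was 4.38%, 4.4% and 6.76% between genotypes in the CD4, CD8 and DP gates. Counting error alone makes such a sum positive even between groups with the same V use. How much of the genotype sums it makes up was not tested, so they are not read as a difference between genotypes.

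**Figure D1:**
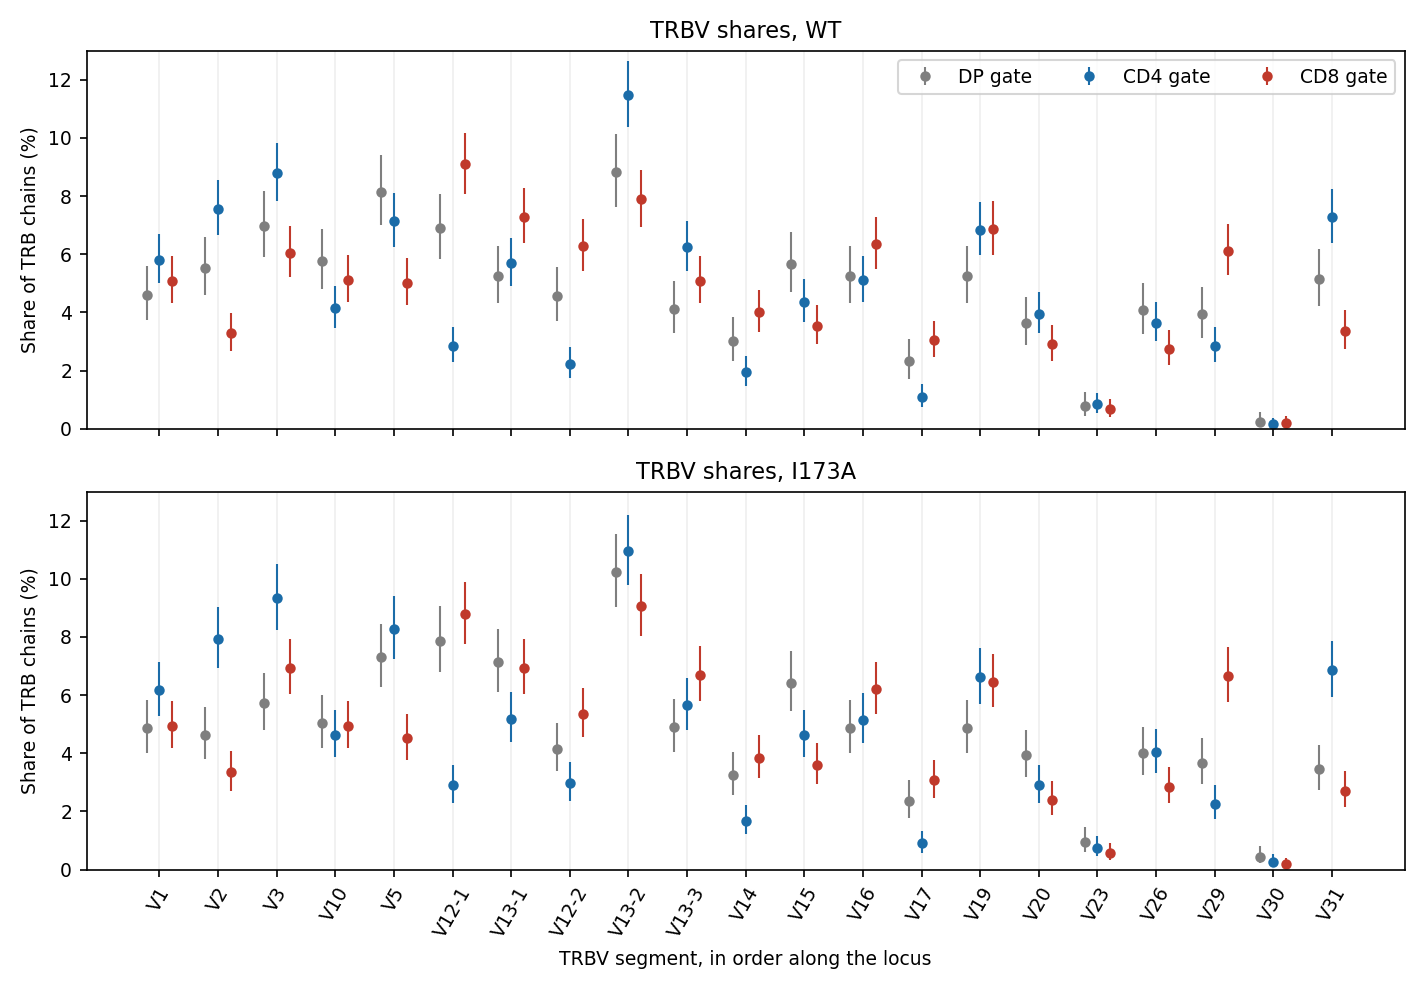
Share of TRB chains (y axis, %) that used each TRBV segment (x axis, in the order of the locus) in the CD4, CD8 and DP gates, for WT and I173A cells in separate panels; points are shares of 1 sample and bars exact 95% intervals. TRBV12-1 sits at 2.84% in the CD4 gate and at 9.09% in the CD8 gate of WT cells, TRBV31 at 7.27% and 3.38%.

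TRBV12-1 and TRBV12-2, both of the former Vβ5 family, were the segments most enriched in the CD8 gate of WT cells. TRBV12-1 made up 2.84% (2.29–3.49) of WT and 2.90% (2.29–3.61) of I173A chains in the CD4 gate, 9.09% (8.09–10.2) and 8.77% (7.76–9.88) in the CD8 gate, and 6.89% (5.83–8.07) and 7.87% (6.8–9.05) in the DP gate. The CD4 gate was the lowest and the CD8 gate the highest in both genotypes, with intervals that did not overlap between these gates. The CD8 over CD4 ratio was 3.20 (2.51–4.11) in WT and 3.03 (2.34–3.96) in I173A cells. TRBV12-2 made up 2.23% (1.74–2.81) and 2.97% (2.36–3.69) in the CD4 gate, 6.29% (5.44–7.22) and 5.36% (4.56–6.25) in the CD8 gate, and 4.56% (3.70–5.55) and 4.15% (3.37–5.05) in the DP gate. Its order of gates was the same, and its ratio was 2.82 (2.13–3.77) in WT and 1.80 (1.36–2.40) in I173A cells. Together the TRBV12 family held 5.07% of WT chains in the CD4 gate, 15.4% in the CD8 gate and 11.5% in the DP gate, and 5.87%, 14.1% and 12% of I173A chains.

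TRBV17, TRBV29 and TRBV14 were also at least 2-fold higher in the CD8 gate of both genotypes. TRBV17 was rare, with 1.10% (0.762–1.53) of WT and 0.903% (0.579–1.34) of I173A chains in the CD4 gate, 3.04% (2.46–3.72) and 3.07% (2.46–3.77) in the CD8 gate, and 2.33% (1.72–3.08) and 2.36% (1.78–3.07) in the DP gate. Its CD8 over CD4 ratio was 2.77 (1.85–4.24) in WT and 3.40 (2.14–5.58) in I173A cells. TRBV29 made up 2.84% (2.29–3.49) and 2.26% (1.73–2.90) in the CD4 gate, 6.12% (5.29–7.04) and 6.66% (5.77–7.64) in the CD8 gate, and 3.93% (3.13–4.86) and 3.67% (2.94–4.53) in the DP gate. Here the CD8 gate stood above both other gates, without overlap of the intervals, in each genotype. The ratio was 2.15 (1.66–2.81) in WT and 2.95 (2.2–4.01) in I173A cells. TRBV14 made up 1.94% (1.48–2.49) and 1.66% (1.21–2.22) in the CD4 gate, 4.01% (3.34–4.78) and 3.84% (3.16–4.61) in the CD8 gate, and 3.01% (2.31–3.84) and 3.23% (2.55–4.04) in the DP gate. The ratio was 2.07 (1.51–2.87) and 2.32 (1.62–3.37), and the DP shares lay between those of the other gates.

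TRBV2 and TRBV31 were the segments most depleted from the CD8 gate. TRBV2, the most 5′ segment of the main V array in this annotation apart from TRBV1, made up 7.56% (6.66–8.55) of WT and 7.94% (6.94–9.03) of I173A chains in the CD4 gate, 3.28% (2.67–3.98) and 3.35% (2.72–4.08) in the CD8 gate, and 5.53% (4.58–6.61) and 4.63% (3.81–5.58) in the DP gate. The CD4 gate was highest and the CD8 gate lowest in both genotypes, with a CD8 over CD4 ratio of 0.433 (0.339–0.551) in WT and 0.422 in I173A cells. TRBV31, the inverted segment, made up 7.27% (6.38–8.24) and 6.85% (5.92–7.87) in the CD4 gate, 3.38% (2.76–4.09) and 2.71% (2.15–3.38) in the CD8 gate, and 5.14% (4.23–6.19) and 3.45% (2.74–4.28) in the DP gate. Its ratio was 0.464 (0.363–0.590) in WT and 0.396 (0.300–0.520) in I173A cells. In WT cells the DP share of both segments lay between the single-positive gates.

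The TRBV13 family was the most used, and its members did not share a direction. TRBV13-2 (formerly Vβ8.2) was the most frequent segment in all 3 gates of I173A cells and in the CD4 and DP gates of WT cells. It made up 11.5% (10.4–12.6) of WT and 10.9% (9.79–12.2) of I173A chains in the CD4 gate, 7.89% (6.95–8.91) and 9.06% (8.02–10.2) in the CD8 gate, and 8.83% (7.64–10.1) and 10.2% (9.02–11.5) in the DP gate. The CD8 over CD4 ratio was 0.688 (0.581–0.813) in WT, past 1.3-fold, and 0.827 in I173A cells, not past it. TRBV13-1 (Vβ8.3) stood at 5.69% and 5.19% in the CD4 gate, 7.29% and 6.94% in the CD8 gate, and 5.24% and 7.12% in the DP gate, with a ratio of 1.28 (1.05–1.57) and 1.34 (1.07–1.67). TRBV13-3 (Vβ8.1) stood at 6.24% and 5.64% in the CD4 gate, 5.08% and 6.69% in the CD8 gate, and 4.12% and 4.90% in the DP gate, with a ratio of 0.815 (0.654–1.01) in WT and 1.19 in I173A cells. TRBV13-3 was thus 1 of the 2 segments that lay on opposite sides of 1 in the 2 genotypes, although both its intervals included 1 (0.953–1.48 in I173A cells). The other was TRBV19, at 6.85% of WT chains in both single-positive gates.

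The remaining lower segments in WT were TRBV3, TRBV5, TRBV20 and TRBV26. TRBV3 made up 8.79% of WT and 9.33% of I173A chains in the CD4 gate, 6.05% and 6.94% in the CD8 gate, and 6.99% and 5.73% in the DP gate, with a ratio of 0.688 (0.567–0.834) in WT and 0.744 in I173A cells. TRBV5 made up 7.14% and 8.28%, 5.02% and 4.51%, and 8.15% and 7.30% in the CD4, CD8 and DP gates, with a ratio of 0.702 (0.567–0.868) and 0.545. TRBV20 made up 3.94% and 2.90%, 2.91% and 2.40%, and 3.64% and 3.93% in the same gates, with a ratio of 0.738 (0.554–0.979) and 0.827. TRBV26 made up 3.65% and 4.03%, 2.74% and 2.85%, and 4.08% and 4.02%. In WT cells the CD4 over DP ratios of TRBV5 (0.876, 0.714–1.08) and TRBV26 (0.896, 0.670–1.20) had intervals that included 1. TRBV26 had a CD8 over CD4 ratio of 0.751 in WT, with an interval that reached 1 (0.558–1.01), and 0.709 in I173A cells. The segments within 1.3-fold in WT were TRBV13-1, TRBV16 (1.24), TRBV10 (1.24), TRBV19 (1.00), TRBV1 (0.874), TRBV13-3 and TRBV15 (0.812). TRBV1, the most 5′ V segment of the locus, held 5.82% of WT and 6.17% of I173A chains in the CD4 gate, 5.08% and 4.93% in the CD8 gate, and 4.61% and 4.85% in the DP gate.

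**Figure D2:**
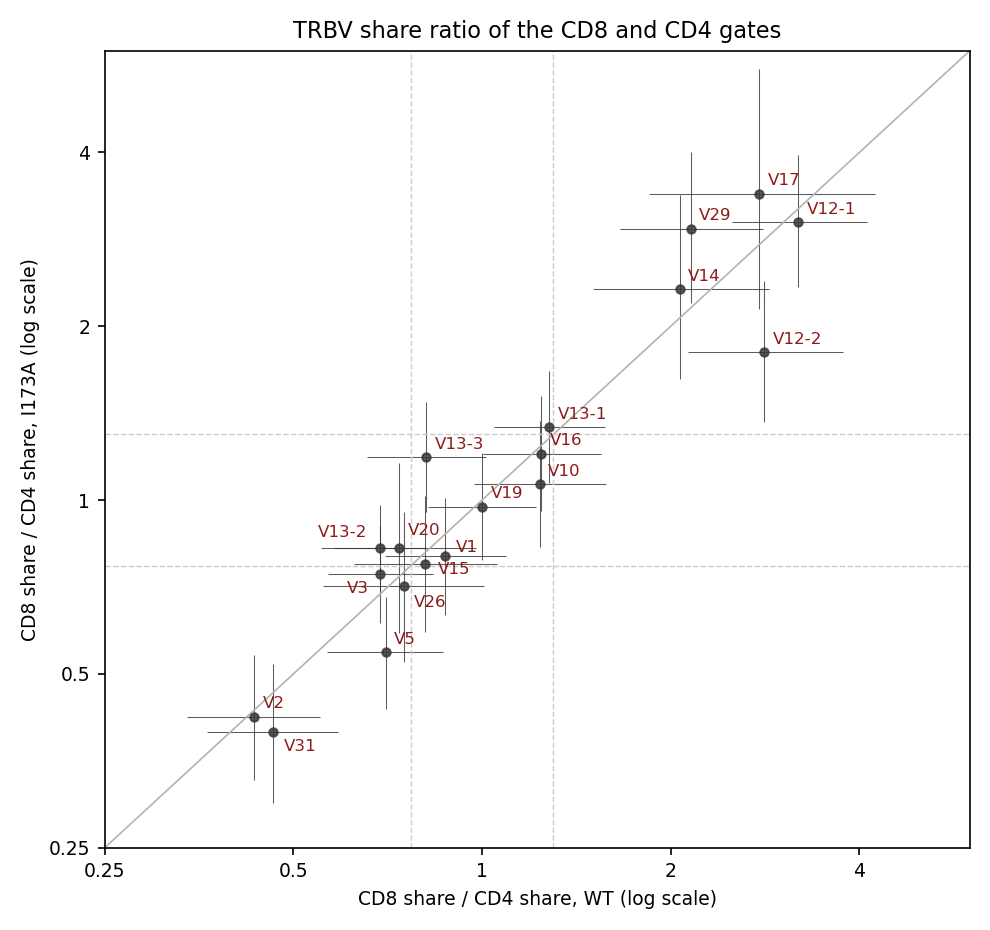
CD8 over CD4 ratio of the share of each of 19 TRBV segments in WT cells (x axis, log scale) against I173A cells (y axis, log scale); each point is 1 segment, bars are exact 95% intervals, dashed lines mark 1.3 and 1/1.3, and the solid line is the diagonal. TRBV12-1, TRBV17, TRBV29, TRBV14 and TRBV12-2 lie above 1.3 in both genotypes and TRBV2, TRBV31, TRBV5, TRBV26 and TRBV3 below 1/1.3 in both.

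The gate ratios of both genotypes lay on the same side of 1 for 17 of 19 segments. Pearson's r was 0.95 and Spearman's rho 0.92 over the 19 segments, given as a description, since the genotypes share their libraries and the shares of a group add up to the whole. Cells with hashtag 5, which the labels give no genotype, had 13 of 19 segments past 1.3-fold between the CD8 and CD4 gates (68.4%), with TRBV29 at 4.78 (3.39–6.87), TRBV12-1 at 3.09 and TRBV31 at 0.345. In WT cells 11 of the 12 segments past 1.3-fold (TRBV20 excepted) and in I173A cells all 11 stayed past it in every other choice of chains tried (closing section). With cells that had a TRA chain only, the WT ratios were 3.21 for TRBV12-1, 3.08 for TRBV17, 0.391 for TRBV2 and 0.404 for TRBV31.

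Both single-positive gates stood apart from the DP gate. The CD4 over DP and CD8 over DP comparisons share the DP cells, so their values are only set side by side. In WT cells 11 of 19 segments (57.9%) were past 1.3-fold between the CD4 and DP gates, 4 higher in CD4 (TRBV13-3 1.51, TRBV31 1.41, TRBV2 1.37 and TRBV19 1.31) and 7 lower. The lowest were TRBV12-1 at 0.413 (0.313–0.542), TRBV17 at 0.472 and TRBV12-2 at 0.489, followed by TRBV14, TRBV10, TRBV29 and TRBV15 at 0.645 to 0.769. In the CD8 over DP comparison 12 segments (63.2%) were past it, 7 higher (TRBV29 1.56, 1.19–2.05; the other 6, TRBV13-1, TRBV12-2, TRBV14, TRBV12-1, TRBV19 and TRBV17, at 1.31 to 1.39) and 5 lower. Those 5 were TRBV2 at 0.592, TRBV5 at 0.615, TRBV15 at 0.624, TRBV31 at 0.657 and TRBV26 at 0.673. TRBV12-1, TRBV12-2, TRBV14, TRBV17 and TRBV29 thus had values under 1/1.3 in the first and over 1.3 in the second comparison. In the second, the intervals of TRBV14 (0.974–1.84) and TRBV17 (0.911–1.89) included 1. TRBV2 and TRBV31 had the reverse, while TRBV15 was under 1/1.3 and TRBV19 over 1.3 in both. Of the 11 calls in the first comparison only 4 (TRBV12-1, TRBV12-2, TRBV2 and TRBV29) held, with at least 50 chains, in every choice of chains tried, and of the 12 in the second 10 did (TRBV17 and TRBV19 did not).

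For scale, 22 of 32 TRAV segments (68.8%) were past 1.3-fold between the CD4 and DP gates of WT cells and 18 of 27 (66.7%) between the CD8 and DP gates. The TRBV shares were 57.9% and 63.2%. TRAV segments rest on fewer chains each (20522 TRA chains and 89 TRAV labels, against 26009 TRB chains and 21 TRBV segments). Counting error alone can thus put more of them past the fold, here and wherever TRAV is given for scale. I173A cells had 12 of 19 TRBV segments (63.2%) past 1.3-fold between the CD4 and DP gates and 8 of 19 (42.1%) between the CD8 and DP gates, against 18 of 29 (62.1%) and 16 of 26 (61.5%) TRAV segments. TRBV31 (1.98), TRBV2 (1.71), TRBV3 (1.63) and TRBV19 (1.36) were higher in the CD4 than the DP gate, and TRBV12-1 (0.368), TRBV17 (0.383) and TRBV14 (0.512) were the lowest of 8. In the CD8 gate TRBV29 (1.81), TRBV13-3 (1.37) and TRBV19 (1.33) were higher than in DP cells, and TRBV15 (0.559), TRBV20 (0.609), TRBV5 (0.618), TRBV26 (0.710) and TRBV2 (0.723) lower. TRBV12-1 was past 1.3-fold between the CD8 and DP gates in WT cells (1.32) and not in I173A cells, whose shares were 8.77% and 7.87%. That difference between genotypes was not tested.

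Few segments differed between genotypes within a gate. In the CD4 gate 2 of 19 TRBV segments (10.5%) were past 1.3-fold between I173A and WT cells: TRBV12-2 at 1.33, with an interval that included 1 (0.953–1.87), and TRBV20 at 0.735 (0.545–0.985). In the CD8 gate the only one was TRBV13-3 (5.26%), at 1.32 (1.06–1.64). In the DP gate there were again 2 (10.5%): TRBV13-1 at 1.36 (1.06–1.75) and TRBV31 at 0.671 (0.495–0.907). For scale, 6 of 46 TRAV segments (13%) were past 1.3-fold between genotypes in the CD4 gate, 10 of 40 (25%) in the CD8 gate and 2 of only 7 with enough chains (28.6%) in the DP gate.

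The next segments by size, among those with at least 100 chains in the gate, were closer to 1. In the CD4 gate TRBV5 stood at 1.16 and TRBV10 at 1.12 on the higher side, and TRBV29 at 0.794 and TRBV14 at 0.854 on the lower, while TRBV17, with 58 chains, stood at 0.822. In the CD8 gate TRBV13-2 and TRBV3 both stood at 1.15, and TRBV31 at 0.803, TRBV20 at 0.824 and TRBV12-2 at 0.852. TRBV13-3 itself was under 1.3 with TRA-bearing cells only (1.25), without barcodes found in more than 1 gate (1.29) and without cells that had Mki67 or Top2a UMIs (1.28). WT cells of this gate had more Dntt and Ptcra RNA. Of 4 macrophage and dendritic cell markers, H2-Aa (25.9 against 0.753 CPM) and Cst3 (183 against 106) were higher in I173A cells, while Lyz2 (0.339 against 0.576) and Itgax (0.113 against 0) were near 0. The part of either in these ratios was not tested. In the DP gate TRBV13-3 stood at 1.19 and TRBV13-2 at 1.16, beside TRBV3 at 0.819 and TRBV2 at 0.838.

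Of the TRBV13 family only TRBV13-1 was past 1.3-fold between genotypes in the DP gate, and the intervals of TRBV13-2 (0.95–1.41) and TRBV13-3 (0.887–1.59) included 1. The family as a whole held 18.2% (16.6–19.9) of WT and 22.2% (20.6–24.0) of I173A DP chains, and the intervals did not overlap. In the CD4 gate it held 23.4% and 21.8%, and in the CD8 gate 20.3% and 22.7%. TRBV31 held 5.14% of WT, 3.45% of I173A and 5.77% (4.82–6.85) of hashtag 5 chains in the DP gate, and TRBV13-1 held 5.24%, 7.12% and 7.41% (6.34–8.61). The hashtag 5 cells stood near WT in TRBV31 and near I173A in TRBV13-1. DP cells of WT mice had more RNA of the proliferation gene Mki67 (747 against 250 CPM), and without cells that had Mki67 or Top2a UMIs 4 TRBV segments were past 1.3-fold in place of 2. Over the settings tried the DP ratio of TRBV13-1 ranged from 1.32 to 1.70 and that of TRBV31 from 0.583 to 0.689.

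J use differed less between gates than V use. TRBJ2-7 was the most frequent J segment of both single-positive gates, with 17.4% of WT and 16.5% of I173A chains in the CD4 gate, 19.2% and 17.2% in the CD8 gate, and 13.5% and 14.5% in the DP gate. The DP gate was lowest in both genotypes, and in WT cells the CD8 over DP ratio was 1.42 (1.22–1.64). TRBJ1-1 made up 9.34% and 11.1% in the CD4 gate, 12.6% and 12.4% in the CD8 gate, and 13.8% and 11.8% in the DP gate. In WT cells it was lower in the CD4 gate than in both others, at a CD4 over DP ratio of 0.675 (0.572–0.798) and a CD8 over CD4 ratio of 1.35 (1.16–1.58). TRBJ2-5, the third most frequent in WT DP cells, held 13.3% and 12.2%, 12% and 12.5%, and 11.7% and 12.9% in the 3 gates.

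Of 12 TRBJ segments, 2 were past 1.3-fold between the CD8 and CD4 gates in WT cells (16.7%), TRBJ1-1 and TRBJ1-3 (0.755, 0.598–0.953). In I173A cells there were 2 as well (16.7%), TRBJ2-1 at 1.35 (1.14–1.59) and TRBJ2-4 at 0.767 (0.640–0.920). WT cells stood close to these, at 1.23 (1.05–1.43) and 0.787 (0.655–0.944), and I173A cells stood at 1.11 (0.952–1.3) for TRBJ1-1 and 0.832 (0.638–1.08) for TRBJ1-3, and whether the genotypes differ in these was not tested. In WT cells TRBJ1-1 was the only one past it between the CD4 and DP gates (8.33%). TRBJ2-7 and TRBJ1-5 were past it between the CD8 and DP gates (16.7%), with TRBJ1-5 at 0.751 (0.531–1.06), an interval that included 1. Between genotypes no TRBJ segment was past 1.3-fold in the CD4 gate (0%), TRBJ1-5 was in the CD8 gate (8.33%) at 1.41 (1.03–1.94), and TRBJ1-6 was in the DP gate (8.33%) at 0.744 (0.515–1.07). Neither TRBJ1-1 nor TRBJ1-3 (CD8 over CD4, WT) stayed past 1.3-fold with at least 50 chains in every choice of chains tried, nor did TRBJ2-4 (I173A), TRBJ1-5 (CD8 over DP, WT) and TRBJ1-6 (between genotypes, DP). TRBJ1-5 and TRBJ1-6 are rare segments, at 2.44% and 3.08% of WT chains in the CD8 gate.

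The TRBJ segments lie in 2 clusters, each behind its own D segment and in front of its own constant gene. The TRBJ2 cluster held 64.6% (62.9–66.3) of WT and 63.4% (61.5–65.2) of I173A chains in the CD4 gate, 63.8% (62.0–65.5) and 64.6% (62.8–66.3) in the CD8 gate, and 58.6% (56.4–60.7) and 63.1% (61.1–65.0) in the DP gate. WT DP cells were the low group, and their interval overlapped none of the other 5. Hashtag 5 DP cells stood at 64.1% (62.1–66.2). Over the settings tried the WT DP share ranged from 58.0 to 59.0% and the I173A DP share from 62.1 to 63.6%.

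The J and C labels were paired within these clusters, while TRBD1 was joined to both. All chains with both labels paired TRBC1 with a TRBJ1 segment (9216 chains) or TRBC2 with a TRBJ2 segment (16577 chains), and 0 were crossed. A TRBD label was given to 5718 chains (22%), among which TRBD1 was joined to TRBJ1 in 1867 and to TRBJ2 in 2036 chains. TRBD2, which lies 3′ of the TRBJ1 cluster, was joined to TRBJ2 in 1794 and to TRBJ1 in 21 chains. D segments are short and trimmed at the junction, so these labels are uncertain.

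V segments differed in how often they were joined to the TRBJ2 cluster. Over all gates the share ran from 53.7% (50.4–57.0) for TRBV26 to 73.1% (70.5–75.6) for TRBV15, with TRBV17 at 72.4%, TRBV5 at 69.0% and TRBV12-2 at 68.8%. The share also differed between gates for single segments. TRBV10 chains used TRBJ2 in 60.3% of DP, 66.3% of CD4 and 75.8% of CD8 chains, and TRBV12-2 chains in 62.8%, 77.5% and 68.6%.

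Most V–J pairs occurred about as often as the product of the 2 shares gives. Of 252 possible pairs 250 were seen, and among the 230 with at least 20 chains expected 190 lay within 1.3-fold of that product. The pairs farthest below it joined TRBJ1-6 or TRBJ1-2. TRBV3 with TRBJ1-6 was seen in 13 chains where 57.8 were expected (ratio 0.225), TRBV15 with TRBJ1-6 in 9 where 35.2 were (0.256), and TRBV16 with TRBJ1-6 in 11 where 40.6 were (0.271). TRBV15 with TRBJ1-2 was seen in 23 chains against 69.8 (0.330), and TRBV17, TRBV14 and TRBV5 with TRBJ1-2 had ratios of 0.402, 0.407 and 0.450. TRBV3 with TRBJ1-6 was low in each gate, at 2 chains against 15.1 expected in the DP gate, 6 against 27.0 in the CD4 gate and 5 against 16.3 in the CD8 gate. The highest ratios were 1.78 for TRBV17 with TRBJ2-2 (55 against 30.9) and 1.66 for TRBV26 with TRBJ1-2 (88 against 53.1).

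**Figure D3:**
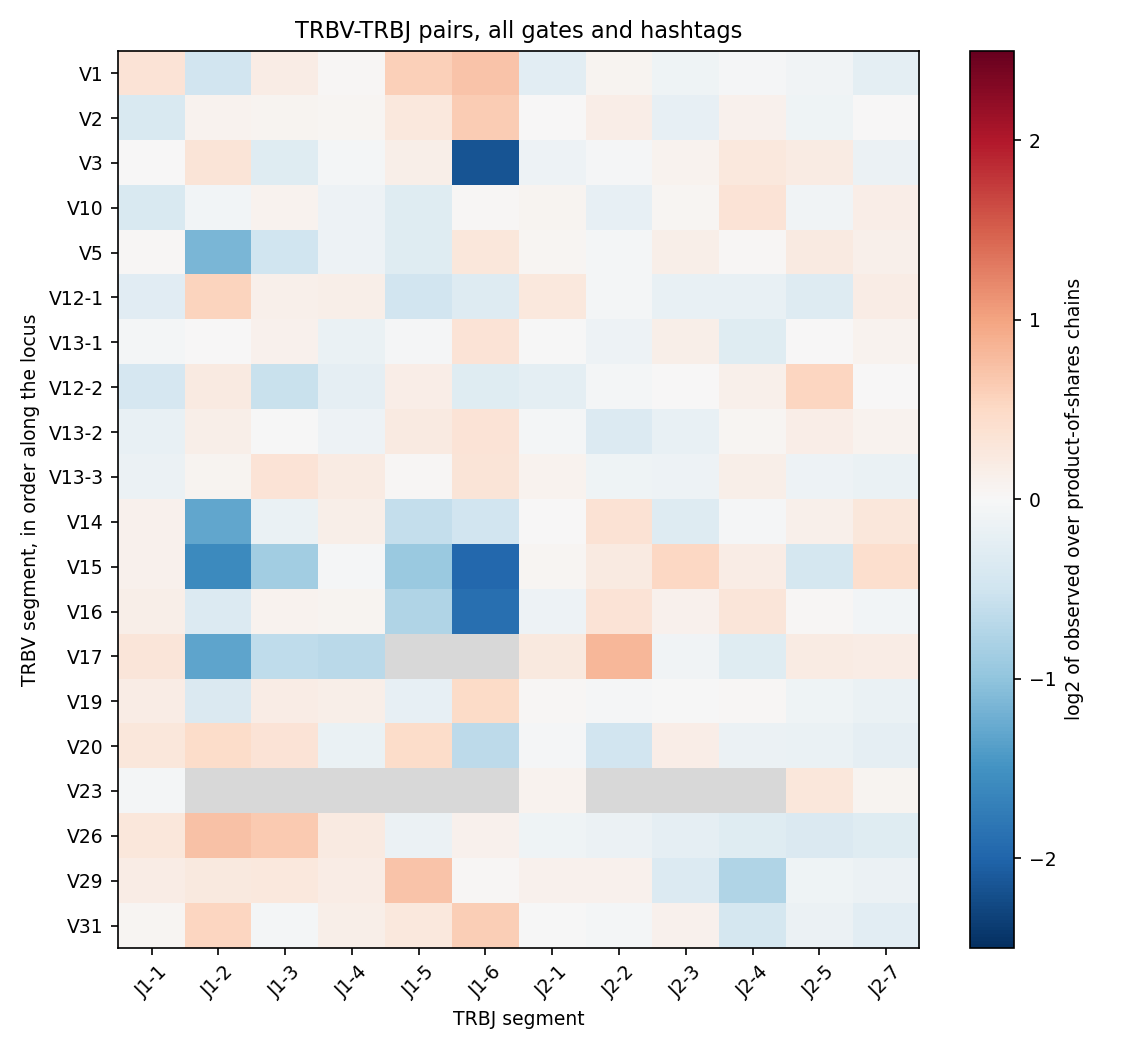
Observed over expected number of chains (colour, log2) for each pair of TRBV (rows, in the order of the locus) and TRBJ segment (columns), over all gates, where the expected number is the product of both shares; grey pairs have under 20 chains expected. TRBV3 with TRBJ1-6 (ratio 0.225) and TRBV15 with TRBJ1-2 (ratio 0.330) are among the lowest.

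CDR3 of the β chain was shorter in both single-positive gates than in the DP gate. Its mean length was 13.82 residues (SD over chains 1.40) in WT and 13.84 (1.38) in I173A cells of the CD4 gate, 13.86 (1.48) and 13.93 (1.47) in the CD8 gate, and 14.22 (1.51) and 14.22 (1.54) in the DP gate. CDR3s of 16 or more residues made up 9.53% and 9.82%, 11.6% and 12.1%, and 18.5% and 18.4% of chains in these gates, and those of 12 or fewer 17.0% and 16.3%, 17.6% and 16.3%, and 13.1% and 12.3%. The genotypes thus lay next to each other in each gate, and the DP gate had the largest share of long CDR3s in both.

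The difference was spread over the segments. CDR3 was shorter in the CD4 than the DP gate for 20 of 20 TRBV and 12 of 12 TRBJ segments, by 0.14 to 0.71 residues for TRBV. In the CD8 gate it was shorter than in the DP gate for 19 of 20 TRBV segments (TRBV20 excepted) and 12 of 12 TRBJ segments. V segments themselves set different lengths, from a mean of 13.21 residues with TRBV20 to 14.85 with TRBV1 in DP cells. DP chains weighted to the V–J mix of the CD4 gate had a mean of 14.21 residues, and weighted to that of the CD8 gate 14.14, against 14.22 as found. In the CD8 gate chains of cells with no TRA chain had a mean of 14.00 residues and those of cells with one 13.89.

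**Figure D4:**
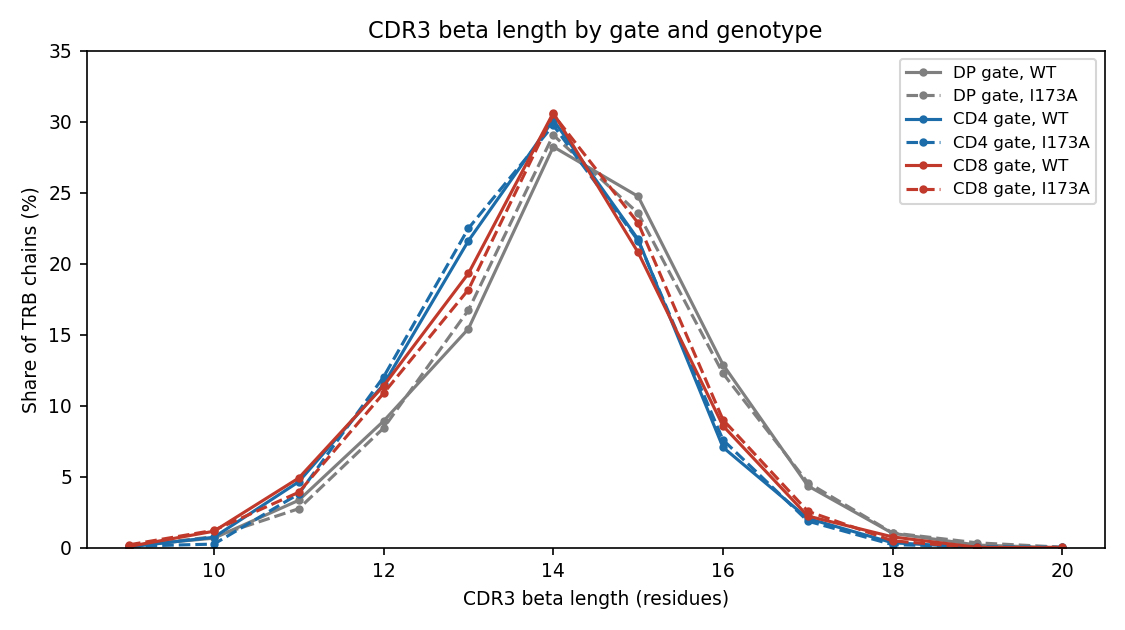
Share of TRB chains (y axis, %) by CDR3 length (x axis, residues) for the CD4, CD8 and DP gates of WT and I173A cells, 1 line for each. The DP lines lie above the others from 16 to 19 residues, and CDR3s of 16 or more residues make up 18.5% (WT) and 18.4% (I173A) of DP chains.

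The RNA libraries gave a second readout of V use in the same cells. By share of Trbv UMIs, 18 of 19 segments lay on the same side of 1 as by contigs between the CD8 and CD4 gates of WT cells (TRBV19, with a contig ratio of 1.00, excepted), among them 12 of the 12 past 1.3-fold. Pearson's r of the log2 ratios was 0.98 over the 19 segments, which share their cells in both readouts. By RNA the ratio was 2.84 (2.65–3.05) for Trbv12-1, 1.65 (1.56–1.76) for Trbv29, 0.470 (0.446–0.495) for Trbv31 and 0.391 (0.359–0.424) for Trbv2. These intervals take each UMI as independent and are too narrow for V use. Cells using the segment gave a mean of 9.93 UMIs each for Trbv12-1 and 16.3 for Trbv29. In I173A cells 11 of the 11 segments past 1.3-fold by contigs lay on the same side by RNA, as did the 5 that were past it between genotypes (2 in CD4, 1 in CD8 and 2 in DP). Over all 19 segments the genotype ratios lay on the same side by both readouts for 17 in the CD4, 13 in the CD8 and 15 in the DP gate. Between the CD4 and DP gates of WT cells 10 of the 11 past 1.3-fold lay on the same side, and TRBV15 did not (0.769 by contigs, 1.02 by RNA).

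RNA of V segments other than the one in the contig was also present. For Trbv13-2 and Trbv12-2 its level differed with the place of the used segment in the locus. Trbv13-2 RNA stood at 10.6 UMIs per cell in cells using TRBV13-2 (99.3% of cells had at least 1). In cells using a segment 5′ of it, where a rearrangement deletes Trbv13-2 from that chromosome, it stood at 0.149 to 0.202 UMIs per cell and was seen in 9.08 to 12.1% of cells, with a mean of 0.178 over 10104 cells. In cells using a segment 3′ of it, where it stays on the chromosome, it stood at 1.24 with TRBV13-3 (56.9% of cells) and 1.37 with TRBV14 (58.9%). TRBV15, TRBV17, TRBV16 and TRBV19 followed with 0.897, 0.853, 0.816 and 0.744 UMIs per cell, then TRBV20 with 0.548, TRBV23 with 0.396 and TRBV26 with 0.344. With TRBV29, TRBV30 and TRBV31 it was near the level of the 5′ segments, at 0.221, 0.170 and 0.223. TRBV13-3 is close in sequence to TRBV13-2 (12 mismatches), so the value in its cells is uncertain. Even so, cells using TRBV13-1 (11 mismatches), which lies 5′, had 0.163 Trbv13-2 UMIs per cell.

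**Figure D5:**
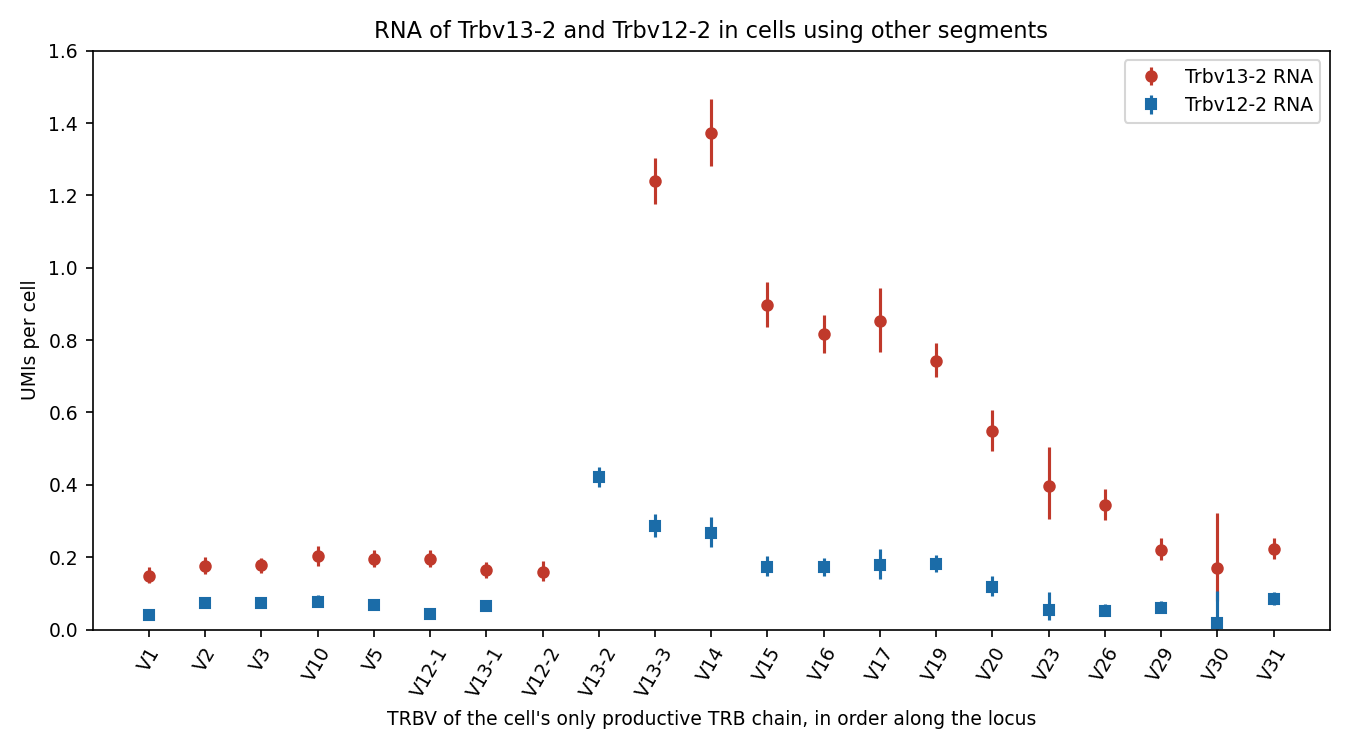
Trbv13-2 and Trbv12-2 UMIs per cell (y axis) in cells whose only TRB chain uses another V segment (x axis, in the order of the locus), over all gates. Bars are exact 95% Poisson intervals that take each UMI as independent. Trbv13-2 RNA steps from at most 0.202 in cells using 5′ segments to 1.37 in cells using TRBV14.

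The same step was seen in each gate. In the CD4, CD8 and DP gates Trbv13-2 RNA stood at 0.167, 0.0685 and 0.228 UMIs per cell in cells using TRBV1, and at 1.21, 0.903 and 2.25 in cells using TRBV14, with the CD8 gate lowest in both. Trbv12-2 RNA behaved alike at a lower level, with 0.0627 UMIs per cell in cells using 5′ segments, 0.421 in TRBV13-2 cells (29.6% of cells), 0.267 in TRBV14 cells and 0.0599 in TRBV29 cells. Most TRBV13-2 chains bore the joint TRBV12-2 and TRBV13-2 label, so the Trbv12-2 value in their cells is uncertain. Whether those Trbv12-2 UMIs come from the used chain itself was not tested. Neighbours elsewhere in the locus had smaller values: Trbv2 RNA stood at 0.233 UMIs per cell in TRBV3 cells and 0.0545 in TRBV1 cells, and Trbv4 RNA at 0.158 in TRBV5 cells. Other Trbv genes had no step of this size between cells using 5′ and 3′ segments. The means were 0.0320 and 0.0339 for Trbv13-3, 0.0241 and 0.0254 for Trbv14, and 0.0691 and 0.0666 for Trbv15. Those of Trbv13-1 (0.0887 and 0.0820) and Trbv19 (0.0695 and 0.0579) were lower with 3′ segments.

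A second TRB chain was found in 5.92% of WT and 5.31% of I173A cells with a TRB chain in the CD4 gate, in 4.76% and 5.19% in the CD8 gate, and in 2.84% and 3.58% in the DP gate. In WT and I173A cells of all gates together, chains of these cells used TRBV31 (1.44) and TRBV15 (1.35) more and TRBV12-1 (0.706) less than chains of cells with 1 TRB chain, with 3 of 20 TRBV segments past 1.3-fold (15.0%). Among J segments TRBJ1-6 (1.51) and TRBJ1-5 (1.39) were higher in cells with 2 chains. These ratios pool gates that differ in both the share of cells with 2 chains and in V use, so they were also taken within each gate, a step chosen after seeing the data. TRBV31 stood at 1.39 (1.03–1.84), 1.28 (0.770–2.02) and 1.52 (0.863–2.5) in the CD4, CD8 and DP gates, and TRBV12-1 at 0.776 (0.414–1.34), 0.731 (0.508–1.02) and 0.732 (0.405–1.23). TRBV15 stood at 1.63 (1.14–2.27), 1.49 (0.961–2.22) and 0.967 (0.544–1.6), so that in the DP gate it was not above 1. Most of these intervals include 1. TRBJ1-6 stood at 1.38, 1.76 and 1.29, and TRBJ1-5 at 1.72, 1.12 and 1.13. Droplets with 2 cells also give 2 TRB chains, and their part in this was not tested.

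A TRA chain was found in 93.4% of WT and 92.7% of I173A cells with a TRB chain in the CD4 gate, 81.0% and 86.7% in the CD8 gate, and 34.0% and 42.1% in the DP gate. In the DP gate, over both genotypes, V use differed little by it, with 1 of 19 segments (5.26%) past 1.3-fold, TRBV17 at 1.38 with a TRA chain over without. In the CD8 gate 5 were past it (26.3%): TRBV26 (1.55), TRBV15 (1.51), TRBV31 (1.38) and TRBV5 (1.35) were higher and TRBV14 (0.523) lower in cells without a TRA chain than in those with one. The intervals of TRBV31 (0.933–2.01) and TRBV5 (0.984–1.82) included 1. TRBV26, TRBV15 and TRBV5 were also past 1.3-fold lower in the CD8 than the DP gate of both genotypes, and TRBV31 in WT but not in I173A cells (0.786, 0.567–1.09).

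Invariant natural killer T (iNKT) cells, which pair a TRAV11–TRAJ18 chain with few V segments, gave a check of the V labels. The CD4 gate held 50 WT and 41 I173A TRB chains beside a TRAV11–TRAJ18 chain. Of these, 40.0% and 43.9% used TRBV13-2, against 11.0% and 10.4% of the other chains in the gate, and 22% and 12.2% used TRBV29, against 2.53% and 2.10%. TRBV13-1 made up 14% and 12.2%, and TRBV1 8.0% and 17.1%. The CD8 gate held 0 such chains in both genotypes and the DP gate 0 in WT and 1 in I173A cells, and without these cells the number of TRBV segments past 1.3-fold between the CD8 and CD4 gates was 13 in WT and 11 in I173A cells.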

How the data were processed

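The authors deposited filtered TCR contig tables and UMI count matrices of RNA and hashtags for 3 gates. Per the submitters' processing notes Cell Ranger 6.0.1 and GRCm38/mm10 were used, and per the file headers the matrices were written by software version 3.1.0. The V(D)J reference is not given in the sources here. The counts were used as deposited. Each productive TRB contig counted as 1 chain. Genotype was taken from the hashtag counts of the same barcode (hashtag 4 for WT, 6 for I173A, at least 10 counts and at least 4 times each other hashtag). Of the chains, 7594 had hashtag 5, 1593 had no single hashtag and 892 (3.43%) had a barcode not in the matrix, 793 of them in the DP gate, so these entered no genotype group. They stayed in the V–J pairs, the TRBJ2 shares by V segment and the CDR3 lengths by segment, which used all chains. The 793 DP chains had a median of 3 UMIs. Of them 67.5% had a rearrangement seen in another barcode of the gate, against 8.42% of DP chains in the matrix. CPM are summed UMIs of a gene scaled by the summed UMIs of all genes of a group. Segments with full values were the 6 highest and 6 lowest CD8 over CD4 ratios in WT (at least 100 chains), the 3 highest and lowest genotype ratios per gate, the most frequent in WT DP cells, and the TRBV12 and TRBV13 families, TRBV1, TRBV29 and TRBV31. V–J and RNA comparisons used all barcodes of a kind, whatever their hashtag, where no genotype is named. The members and lists were chosen with earlier results of these data known, and the joint TRBV12-2 and TRBV13-2 label was merged after seeing the data. Barcodes found in more than 1 gate (678 entries, with a barcode counted once in each gate that held it) never shared a β chain CDR3 between gates (0). Gene names and coordinates are from RefSeq (GRCm38.p6), and sequences are from the contig tables. Doublets were not called. Python 3.11.15, numpy 2.4.6, pandas 2.3.3, scipy 1.17.1 and matplotlib 3.10.9 were used, and the ratio and interval steps were tested on simulated data. No significance test was run, with 1 sample per group.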

Additional observations from a re-analysis of the deposited data

Results flagged for a closer look

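TRB chains with hashtag 5, which the labels assign to no genotype, were similar in number to those of the labelled genotypes, although no labelled group covers them. The CD4 gate held 2766 such chains, the CD8 gate 2697 and the DP gate 2131. Their V use is given in the report as values only. Among 124 pairs of ratios of the same segment set side by side (between genotypes for gate comparisons, between gates for genotype comparisons), none lay on opposite sides of 1 with both intervals leaving out 1.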

How the results depend on the processing

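No paired analysis was possible because each genotype in each gate is 1 sample and no test was run. The settings were run for the CD8 over CD4 comparison in both genotypes and for both comparisons with the DP gate in WT cells. They were also run for the genotype comparisons in each gate, the TRBJ2 shares and the CDR3 lengths. Ratios of single segments were followed only where they were past 1.3-fold in the main setting (60 ratios), in overlapping sets of chains. None crossed 1, but such ratios could hardly do so, and no conclusion is drawn from it. The comparisons with the DP gate in I173A cells, those by TRA or second TRB chain, and the V–J pairs were not recomputed under these settings. Of 605 values for the ratios of single segments 602 moved by no more than their counting interval. The 3 that moved were TRBV13-2 between the CD8 and CD4 gates of WT cells with its labels kept apart (0.310, a setting chosen after seeing the data), TRBV29 in the same comparison over all chains whatever their hashtag (2.85), and TRBV31 between the CD8 and DP gates of WT cells with TRA-bearing cells only (0.494). The TRBJ2 shares did not move in 54 of 54 values, nor the CDR3 means in 53 of 54, with the mean of WT CD8 cells at 13.80 without cells that had Mki67 or Top2a UMIs.

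Counts of segments past the fold moved by over 1.5 times in 35 of 164 values. A fold of 1.5 in place of 1.3 left 7 TRBV segments for CD8 over CD4 in WT cells, 5 for CD4 over DP, 5 for CD8 over DP and 0 between genotypes in each gate. The same fold left 0 TRBJ segments in each of the 7 comparisons recomputed, from 2 for CD8 over CD4 in either genotype. A minimum of 200 chains left 7 TRBV for CD4 over DP in WT, and between genotypes 0 in the CD4 and 1 in the DP gate. It left 1 TRBJ for CD8 over DP in WT and 0 between genotypes in the CD8 and DP gates.

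Between genotypes in the CD8 gate, 0 TRBV were past the fold with TRA-bearing cells only, without barcodes in more than 1 gate, and without cells that had Mki67 or Top2a UMIs. In the DP gate the numbers were 6 with TRA-bearing cells only and 4 without Mki67 or Top2a cells, against 2. TRBJ counts between genotypes in the DP gate were 2 with exactly 1 TRB chain, 3 with TRA-bearing cells only, 3 without Mki67 or Top2a cells and 2 with a hashtag margin of 10, against 1. For CD4 over DP in WT cells they were 2 with TRA-bearing cells only, 2 without barcodes in more than 1 gate and 4 without Mki67 or Top2a cells, against 1. For CD8 over CD4 TRBJ counts were 1 over all chains whatever their hashtag (WT), and in I173A cells 1 with at least 3 UMIs, 1 without TRAV11–TRAJ18 cells and 1 without barcodes in more than 1 gate. That last setting also gave 1 for CD8 over DP in WT cells. The cause of these shifts was not tested. Groups hold 2061 to 3094 chains, so that a segment at 1% rests on few chains and the genotype ratios near 1.3 are within reach of counting error.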
